A study of Mus musculus with 22 samples.

Results

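B cells cultured with lipopolysaccharide and a reagent labelled a-d-dextran were compared with B cells cultured with lipopolysaccharide alone. The label is read here as an antibody to IgD carried on dextran, a polymer that lets the antibody crosslink many B-cell receptors at once. The comparison uses 2 of the 22 libraries of the series, chosen by their labels, and its members are the protein-coding genes ranked by the size of their difference. Of 20674 protein-coding genes, 8216 reached a level of 10 TPM (the share of a gene in all transcripts of a library, corrected for gene length and scaled to a fixed total) in at least 1 of the 2 libraries.

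The series profiled poly(A) RNA of mouse cells and tissues beside maps of open chromatin, which are not analysed here. Both libraries come from mature B cells purified from C57BL/6J spleen by negative selection, and the activating agents are LPS in one and LPS+a-d-dextran in the other. Doses, times in culture, sex and age, and whether the cultures were started from the same animals, are not given in the sources used here. Splenic B cells and 4 other activated cultures (LPS+IL4, LPS+IL21, aCD40+IL4 and aBCD180) serve below as reference levels. The reading of the agents rests on the labels alone.

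The B-cell receptor is a membrane immunoglobulin, IgM or IgD on mature cells, held with the signalling chains CD79A and CD79B. Its crosslinking activates the kinases LYN and SYK, calcium and NFAT, the ERK pathway, PI3 kinase and NF-kB. Lipopolysaccharide (LPS), a bacterial cell wall component, acts through Toll-like receptors and drives B cells to divide and to become antibody-secreting plasmablasts. Antibody-dextran conjugates imitate antigens with repeated epitopes, such as bacterial polysaccharides, and crosslinking the receptor during LPS culture has long been known to hold back the plasmablast fate.

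There was 1 library per condition, so no test was possible and the spread between cultures of a condition is unknown. A gene was called higher or lower by a rule of size: its log2(TPM + 1) differed by at least 1 (about 2-fold) and its level reached 10 TPM in the higher library. Differences are given as LPS+a-d-dextran minus LPS on that scale, which understates changes of low genes. Fold differences in TPM carry an exact 95% interval that covers counting error only. Total expected counts were 30805597 for LPS and 40736976 for LPS+a-d-dextran, and a gene near 10 TPM had a median of 484 and 661.5 counts in them. In bulk samples, fewer cells of a type and less RNA per cell cannot be told apart.

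Both libraries held the transcripts that define B cells. Cd79a stood at 1268 TPM with LPS and 536 TPM with LPS+a-d-dextran, Ms4a1 (CD20) at 1031 and 545 TPM, and Pax5, the factor that fixes B-cell identity, at 455 and 280.1 TPM. Other cell types left small traces, except for erythroid transcripts, which were abundant. The part of all of these in the results was not tested. The 15 macrophage and monocyte markers summed to 26.7 and 14.1 TPM with none at the 10 TPM minimum, the 14 granulocyte, basophil and mast cell markers to 3.60 and 1.39 TPM, and the 10 natural killer cell markers to 8.09 and 3.39 TPM. The 11 dendritic cell markers summed to 72.6 and 71.7 TPM, mostly Bst2, which is also induced by interferon. The complement genes C1qa, C1qb and C1qc, which define macrophages, lay at 0.13, 0.13 and 0.06 TPM with LPS. The T-cell antigen receptor genes Cd3d, Cd3e and Cd3g lay at 0.61, 0.66 and 1.07 TPM with LPS and at 0.27, 0.39 and 0.30 TPM with LPS+a-d-dextran. The 16 T-cell markers summed to 135 and 65.2 TPM, of which Cd2, which B cells also express, was 65.9 and 10.9 TPM. Of the 12 erythroid and platelet markers, 3 were measured and all 3 were lower with LPS+a-d-dextran: Hba-a1 (2376 against 873 TPM), Hbb-bt (161 against 56.0 TPM) and Alas2 (26.2 against 10.5 TPM), where the first value of each pair is LPS here and below. Ddx3y, a Y-linked gene, was at 0.04 and 0.01 TPM in the 2 libraries, at 42.8 TPM in LPS+IL21 and at 104 TPM in splenic B cells, so these reference libraries also differ in that respect.

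Far more genes were lower than higher with LPS+a-d-dextran. By the rule of size 593 genes were lower (7.22% of those tested) and 36 were higher (0.438%). At a difference of at least 2, about 4-fold, 75 genes were lower (0.913%) and 0 higher (0%). The median over all genes tested was -0.04, and 46.8% of genes lay above 0. The largest decrease was -3.46 and the largest increase 1.95. Scaling by TMM, which scales libraries so that the bulk of genes match, moved the median of all genes to 0.09 and gave 105 higher and 522 lower, so that 16.7% of called genes were higher, against 5.72% on the TPM scale. RLE scaling moved the median to 0.13 and gave 130 higher and 488 lower (21.0% higher). Just inside the rule lay Ccnb1ip1 (1.01) and Syvn1 (-1.0001), and just outside it Slc29a2 (0.999) and Cyb561d1 (-0.999).

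**Figure D1:**
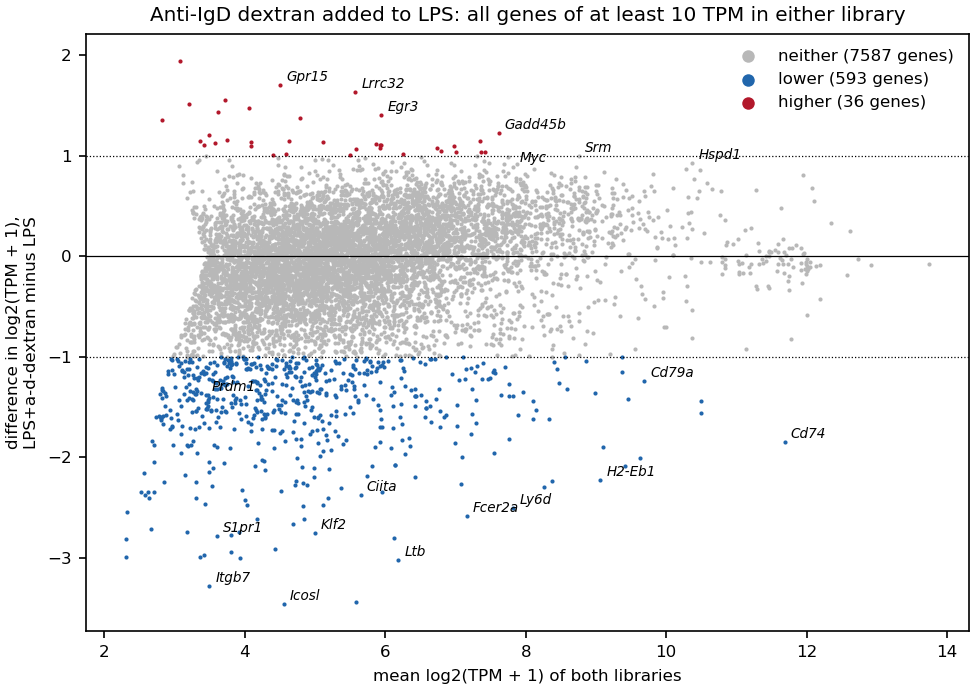
Each point is 1 of the 8216 genes tested. The x axis is the mean log2(TPM + 1) of both libraries, the y axis is the difference LPS+a-d-dextran minus LPS, and dotted lines mark 1 and -1. The 593 lower genes (blue) reach -3.46, and the 36 higher genes (red) reach 1.95.

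Several of the genes with the largest decreases encode surface molecules of B cells. Icosl, the ligand through which B cells engage ICOS on helper T cells, stood at 77.0 TPM with LPS and 6.09 TPM with LPS+a-d-dextran, a 12.6-fold decrease (11.3 to 14.2). Ltb, the lymphotoxin that B cells use to organise follicles, went from 206 to 24.6 TPM (8.41-fold lower, 7.67 to 9.24). Both were still higher in splenic B cells, at 466 and 923 TPM. LPS+IL4 held less Icosl (0.64 TPM) than LPS+a-d-dextran, but more Ltb (153 TPM). Pirb, an inhibitory receptor, went from 42.2 to 4.40 TPM, with its relatives Pira1 (28.0 against 2.64 TPM) and Lilra6 (12.2 against 0.87 TPM). The 3 genes are near copies, and the division of reads among them is uncertain. The other genes among the 20 with the largest decreases that belong to no group below were Trim7 (28.9 against 2.81 TPM), B3gnt8 (37.7 against 4.02 TPM), Neurl3 (58.0 against 6.84 TPM), Ifi214 (38.0 against 4.83 TPM), Rnase6 (22.3 against 2.49 TPM), Gadd45g (15.2 against 1.47 TPM), Srpk3 (63.9 against 9.25 TPM) and AB124611 (70.4 against 10.6 TPM). Gadd45g, a stress-response gene, was far above both libraries in other cultures, at 127, 235 and 373 TPM in LPS+IL4, LPS+IL21 and aCD40+IL4.

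**Figure D2:**
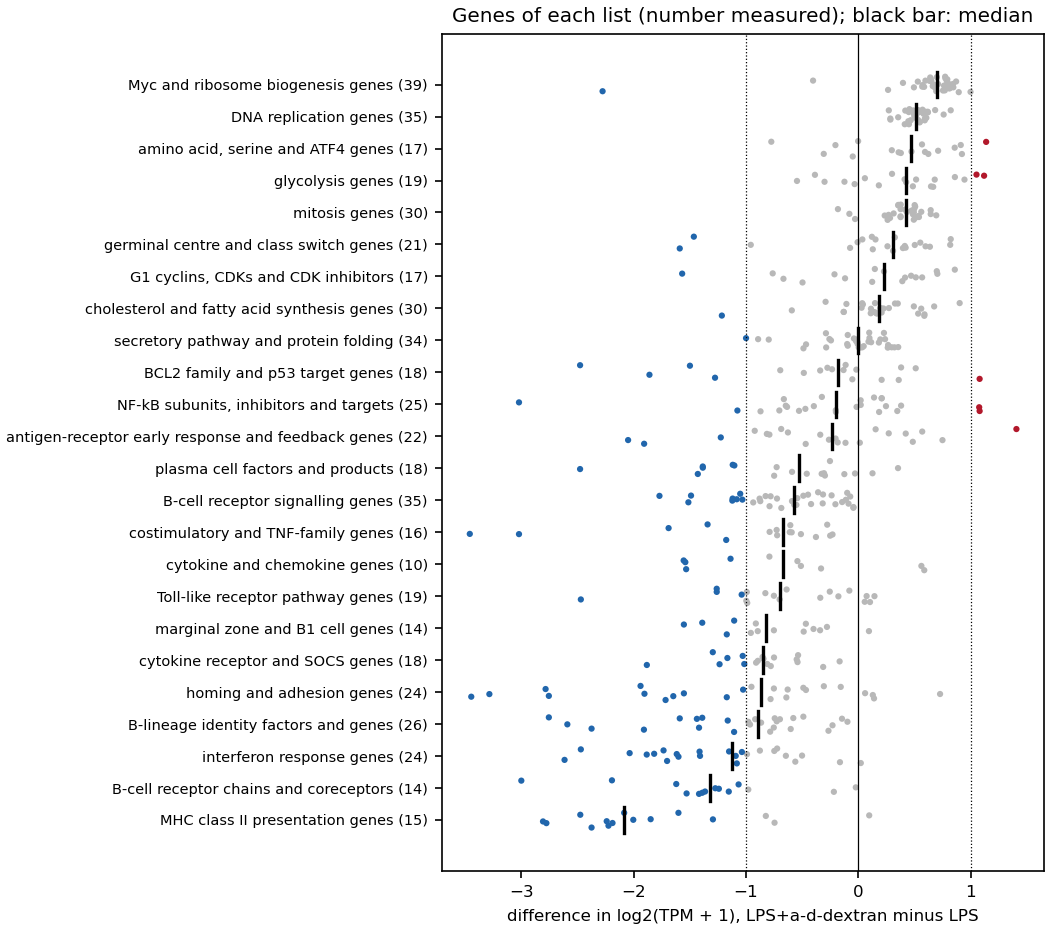
Each point is a measured gene of a gene list, on the x axis its difference in log2(TPM + 1), LPS+a-d-dextran minus LPS. Lists are ordered by their median (black bar), from 0.70 for Myc and ribosome biogenesis to -2.08 for MHC class II presentation. Blue and red mark genes past the rule of size.

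Antigen presentation by MHC class II was the most reduced group. Class II molecules display peptides to helper T cells, and the factor CIITA switches on their genes together with those of the invariant chain Cd74 and the peptide editors H2-DM and H2-O. Of the 16 genes listed, 15 were in the files and all 15 were measured. Of these 12 were lower and 0 higher, against 7.22% and 0.438% of all genes tested, with a list median of -2.08 against -0.04. The same 12 against 0 were counted with TMM and with RLE scaling.

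Among the antigen-presenting chains, H2-Aa fell from 1584 to 394 TPM (4.02-fold, 3.92 to 4.12). H2-Ab1 fell from 1399 to 329 TPM (4.25-fold, 4.14 to 4.36). H2-Eb1 fell from 1152 to 246 TPM (4.69-fold, 4.57 to 4.81). The 3 chains thus dropped by a similar factor of 4.02 to 4.69. Cd74, the invariant chain that guides class II to its loading compartment, fell from 6261 to 1737 TPM (3.60-fold, 3.56 to 3.64). The peptide editor genes fell likewise: H2-DMa (128 against 41.6 TPM), H2-DMb1 (113 against 23.9 TPM) and H2-DMb2 (720.4 against 152 TPM), of which the last 2 are near copies whose reads may be divided uncertainly. H2-Oa (80.8 against 13.7 TPM) and H2-Ob (184 against 25.4 TPM), which encode the editor that restrains H2-DM, fell by 5.89-fold and 7.24-fold.

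Among the regulators, some passed the rule and some did not. Ciita, the master switch of class II transcription, fell from 113 to 21.0 TPM (5.39-fold, 5.14 to 5.64). Rfx5, a subunit of the complex that recruits CIITA to class II promoters, fell from 64.0 to 25.5 TPM. The other subunits did not pass the rule, with Rfxank at 14.5 against 8.24 TPM and Rfxap at 16.1 against 17.3 TPM. March1, a ubiquitin ligase that removes class II from the surface, fell from 35.5 to 4.33 TPM. Ctss, the protease that trims the invariant chain, was at 263 and 148 TPM (-0.82) and did not pass the rule.

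The class II promoters share a short element, the Y box, which binds the factor NF-Y beside the site of the RFX complex. Its core, GATTGG, was searched on both strands in RefSeq promoter windows of build GRCm38.p6, which span 250 bases before to 50 bases after a gene's start. It was found in windows of 9 of the 10 class II list genes that matched the table, against 24.9% of the tested genes that matched. A further listed gene, whose expression is not analysed here, matched a window without it. Over all windows known to RefSeq there, 16.1% held it, and over the windows of tested genes 21.3%. A match is a description of these letters and not evidence of binding. The stretches below, 80 bases each on chromosome 17, are shown because the 5 genes fell together, and capitals mark the GATTGG core on the strand of the gene.
H2-Aa: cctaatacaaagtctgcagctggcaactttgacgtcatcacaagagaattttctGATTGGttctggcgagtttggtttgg
H2-Eb1: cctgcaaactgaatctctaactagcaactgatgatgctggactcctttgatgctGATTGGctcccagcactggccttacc
H2-DMb1: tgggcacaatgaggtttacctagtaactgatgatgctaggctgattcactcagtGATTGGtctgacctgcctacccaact
H2-Oa: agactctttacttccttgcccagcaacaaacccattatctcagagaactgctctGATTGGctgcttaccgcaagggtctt
H2-Ob: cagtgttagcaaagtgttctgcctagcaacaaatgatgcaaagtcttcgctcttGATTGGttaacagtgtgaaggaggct
They lie at chr17:34287847-34287926 (minus strand), chr17:34305753-34305832, chr17:34153075-34153154, chr17:34092281-34092360 and chr17:34238793-34238872 (all plus strand). The core begins 49, 60, 62, 44 and 58 bases before the annotated start, in the same order.

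**Figure D3:**
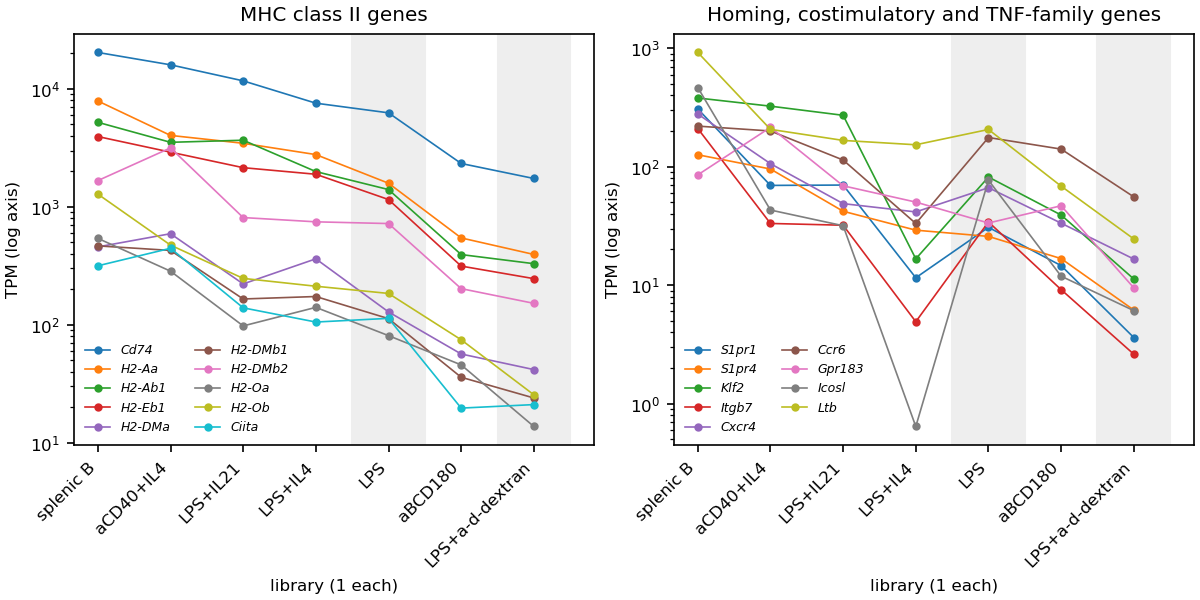
TPM on a log axis in each of the 7 primary B-cell libraries (1 each), for class II genes on the left and homing, costimulatory and TNF-family genes on the right; lines join the points of a gene and grey bands mark the 2 libraries compared. Splenic B cells hold the highest Cd74 at 20356 TPM, and LPS+a-d-dextran holds the lowest at 1737 TPM.

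In 12 of the 15 class II list genes LPS+a-d-dextran was the lowest of the 6 activated cultures, the exceptions being Ciita, March1 and Rfxap. Over all genes tested LPS+a-d-dextran was the lowest in 19.9%. The aBCD180 culture came close, with Cd74 at 2329 TPM and H2-Aa at 544 TPM, and its Ciita level of 19.6 TPM was below the 21.0 TPM of LPS+a-d-dextran. The antigen-presenting chains, Cd74 and the editor genes stood higher than with LPS alone in LPS+IL4, LPS+IL21 and aCD40+IL4, with Cd74 at 7559, 11689.7 and 15991 TPM in that order. Lower values than with LPS alone also occurred in the list: Rfx5 was at 28.5 and 40.8 TPM in LPS+IL4 and LPS+IL21, March1 at 2.51 and 32.4 TPM, and Ciita at 105 TPM in LPS+IL4.

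Genes of the receptor's signalling chains and its coreceptors had the lowest median after class II among the lists plotted. The immunoglobulin chain genes themselves are not analysed here. Of 16 listed genes 14 were measured and 2 were below the minimum, and 11 fell (78.6%, against 7.22% of all genes tested), 0 rose, and the median was -1.32. The same 7.22% lower and 0.438% higher are the values to set beside the shares of each list below. Cd79b fell from 1142 to 427 TPM (2.68-fold, 2.61 to 2.74) and Cd79a from 1268 to 536 TPM (2.37-fold, 2.32 to 2.42). Both signalling chains were lower than in the other 5 activated cultures, where Cd79a ran from 973 to 1921 TPM. With TMM and RLE scaling 10 and 9 of the 14 were still lower.

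Inhibitory coreceptors fell as well as activating ones. Siglecg, a sialic acid receptor that dampens receptor signals, fell from 183 to 39.2 TPM (4.67-fold). Cd22, its relative, fell from 483 to 156 TPM, and Fcgr2b, the inhibitory Fc receptor, from 337 to 139 TPM. Cd72 (816 against 316 TPM), Cd38 (102 against 34.6 TPM), Cd37 (987 against 443 TPM) and Fcrl1 (241 against 115 TPM) were lower too, and Pirb belongs to this list. On the activating side, the complement receptor Cr2 (CD21) fell from 137 to 51.9 TPM. Cd81 (107 against 91.8 TPM, -0.22) and Fcrl5 (87.1 against 85.7 TPM, -0.02) differed little.

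The signalling genes downstream of the receptor leaned the same way with smaller differences. All 35 measured genes of 37 listed lay below 0, with a median of -0.57, and 8 fell (22.9%). Dgka, a lipid kinase that removes diacylglycerol, went from 55.0 to 15.4 TPM (3.57-fold). The phosphatase gene Ptpn22 (28.9 against 9.46 TPM) and Malt1 (68.7 against 31.1 TPM), a protease that links the receptor to NF-kB, fell. So did Ptprc (CD45, 513 against 235 TPM), the kinase Syk (484 against 233 TPM), and the restraining genes Cblb (46.5 against 21.4 TPM) and Ubash3b (30.3 against 14.3 TPM). Btk (159.8 against 98.9 TPM, -0.69), Lyn (151 against 87.4 TPM, -0.78) and Plcg2 (238 against 185 TPM, -0.36) did not pass the rule. With TMM or RLE scaling, under which all 37 were measured, 3 were called lower.

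B-lineage factors showed the same gradient. Of 26 genes, all measured, 10 fell (38.5%), 0 rose, and the median was -0.89. Klf2, a factor of resting lymphocytes that controls their traffic, fell from 81.8 to 11.3 TPM (7.26-fold, 6.53 to 8.09). Fcer2a (CD23), the low-affinity IgE receptor of follicular B cells, fell from 350.4 to 57.3 TPM (6.11-fold, 5.85 to 6.38). Bcl6, which encodes a transcriptional repressor that the germinal centre programme requires, stood at 27.2 and 8.36 TPM. Ets1 (171 against 63.3 TPM), Ikzf3 (281 against 125 TPM), Foxo1 (67.0 against 30.6 TPM), Fcmr (454 against 167 TPM) and Cd55 (40.5 against 10.0 TPM) also fell, and Ciita and Cr2 are counted here as in their other lists. The core factors Pax5 (-0.70), Ebf1 (-0.60), Spi1 (-0.58), Bach2 (-0.27), Tcf3 (-0.15) and Ikzf1 (-0.10) had negative differences that did not pass the rule.

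Genes of lymphocyte traffic and adhesion held some of the steepest decreases. Of 34 listed, 24 were measured; 11 fell (45.8%), 0 rose, and the median was -0.87. Beside Klf2, Itgb7, a chain of the gut-homing integrin, fell from 34.2 to 2.61 TPM (13.1-fold, 11.0 to 15.7). S1pr1, the receptor that guides lymphocytes out of tissue, fell from 30.8 to 3.61 TPM (8.52-fold, 7.39 to 9.87). The chemokine receptors Cxcr4 (66.5 against 16.6 TPM) and Ccr6 (177 against 55.7 TPM) and the positioning receptors Gpr183 (33.5 against 9.49 TPM), S1pr4 (25.8 against 6.16 TPM) and Cnr2 (38.1 against 12.3 TPM) fell. S1pr3 (10.2 against 3.99 TPM) and Rgs2 (10.7 against 4.74 TPM) were also past the rule. Cd44, an adhesion receptor of activated lymphocytes, leaned the opposite way (85.5 against 142 TPM, 0.73) and was highest in LPS+a-d-dextran among the 6 activated cultures, without passing the rule. Of the 14 measured marginal zone and B1 cell genes 4 fell (28.6%), namely Cd1d1 (20.7 against 6.38 TPM), Cr2, S1pr3 and Bhlhe41 (13.6 against 5.77 TPM), with a median of -0.82.

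Many of these genes are high in unstimulated B cells, so all genes were also grouped by libraries outside the comparison, a grouping added after the data had been seen. A gene was counted as resting-high when splenic B cells exceeded each of LPS+IL4, LPS+IL21, aCD40+IL4 and aBCD180 by at least 1 in log2(TPM + 1), and as activation-induced when they lay below each by as much. Of 504 resting-high genes, 273 reached 10 TPM in at least 1 of the 2 libraries compared, and 149 of them (54.6%) were lower with LPS+a-d-dextran, 0 were higher, and the median was -1.08. Some of the 273 reached 10 TPM only with LPS, such as S1pr1 (30.8 against 3.61 TPM), which favours lower calls. How many did so was not counted. Among 231 activation-induced genes 6 were higher, 0 lower, and 221 lay above 0, with a median of 0.53. These genes also had to reach 10 TPM in each culture of the grouping, and all 231 were tested. The resting-high and activation-induced genes were thus not filtered alike. Of the remaining 7712 genes, 444 were lower (5.76%) and 30 higher, and their median was -0.03. Leaving aCD40+IL4 out of the grouping enlarged the resting-high genes tested to 723, of which 36.1% were lower. With any other culture left out the share ran from 49.5% to 55.9%, and with TMM scaling it was 56.2%, with RLE scaling 55.7%. Splenic B cells also carry traces of other cells, with macrophage markers summing to 590 TPM there; the part of these in the grouping was not tested. Of the 5 libraries that define it, splenic B cells, LPS+IL4 and LPS+IL21 have titles whose library code ends in the letter A, whereas the code ends in C for the other cultures and both libraries compared.

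**Figure D4:**
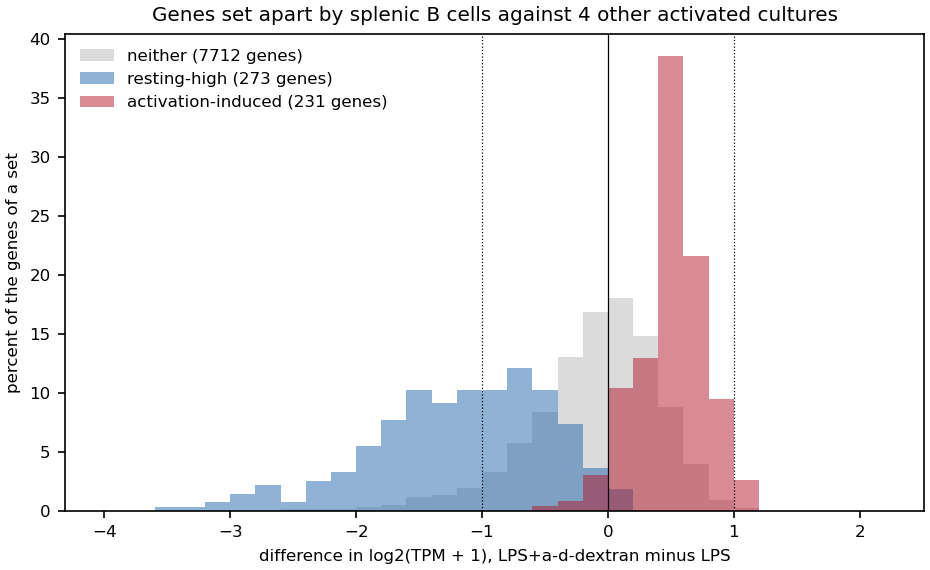
Histograms of the difference in log2(TPM + 1), LPS+a-d-dextran minus LPS, for resting-high, activation-induced and all other genes, each as percent of its set. The resting-high set (273 genes, median -1.08) lies mostly left of 0 and the activation-induced set (231 genes, median 0.53) mostly right of it.

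Interferon response genes, which LPS can induce through type I interferon, fell in large part. Of 34 genes in the files 24 were measured; 15 fell (62.5%), 0 rose, and the median was -1.12. Irf7, the factor that amplifies interferon production, fell from 24.3 to 3.57 TPM (6.82-fold, 5.63 to 8.30). Zbp1, a nucleic acid sensor, fell from 38.2 to 8.55 TPM, and Ddx58 (RIG-I), a sensor of viral RNA, from 26.0 to 7.79 TPM. Stat2 (56.1 against 17.8 TPM) and Irf9 (66.8 against 31.0 TPM), which belong to the interferon-activated transcription complex, fell. Ifi209 (43.9 against 6.32 TPM), Ifi203 (69.7 against 20.3 TPM) and Ifi204 (16.5 against 3.73 TPM) belong to a cluster of near copies and are uncertain one by one. Ly6a (111 against 33.3 TPM), Ifi27l2a (408 against 115 TPM), Oas1a (14.0 against 4.63 TPM), Trim30a (81.7 against 36.2 TPM) and the GTPases Gbp3 (81.0 against 37.5 TPM), Gbp4 (23.0 against 8.03 TPM) and Gbp5 (40.9 against 19.4 TPM) made up the rest. The other measured members did not pass the rule. Of these, Isg15 was at 99.0 and 59.6 TPM (-0.72), Ifit1 at 14.7 and 9.03 TPM, and Bst2 at 58.4 and 59.3 TPM. In the aBCD180 culture, which had no LPS label, Isg15 and Irf7 lay lower still, at 3.22 and 0.88 TPM.

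Receptors and adaptors of the LPS response were compared next. Of 25 Toll-like receptor pathway genes 19 were measured; 4 fell (21.1%, against 7.22% of all genes tested), 0 rose, and the median was -0.70. Those lower were Irf7, Unc93b1 (549 against 229 TPM), which carries nucleic acid sensors to endosomes, Irak3 (31.4 against 12.5 TPM), a brake on the pathway, and Tlr2 (11.7 against 5.20 TPM). Tlr4, the LPS receptor, was below the minimum at 4.93 and 2.27 TPM. Cd180, a relative of Tlr4 on B cells, differed little (159 against 176 TPM, 0.14), its partner Ly86 narrowly missed the rule (315 against 158 TPM, -0.99), and Myd88, the shared adaptor, was at 50.6 and 44.6 TPM.

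Cytokines and their receptors were lower where they passed the rule. Of 10 measured cytokine and chemokine genes of 38 listed, 4 fell (40%) and 0 rose. Il10, the inhibitory cytokine of LPS-activated B cells, fell from 39.9 to 12.9 TPM (3.09-fold, 2.71 to 3.52). Il12a (35.4 against 11.6 TPM), Ccl5 (21.4 against 6.69 TPM) and Il16 (113 against 50.9 TPM) also fell, whereas Il6 leaned upward without passing (12.8 against 19.8 TPM, 0.59). Of 18 measured receptor genes 6 fell (33.3%): Il9r (14.1 against 3.08 TPM), Il10ra (121 against 48.8 TPM), Il10rb (48.7 against 20.1 TPM), Il2ra (15.3 against 6.26 TPM), Ifngr1 (45.1 against 21.6 TPM) and Il17ra (73.9 against 36.0 TPM). Both chains of the IL10 receptor thus fell together with Il10. Among 16 measured costimulatory and TNF-family genes, Icosl, Ltb, Tnfrsf18 (13.0 against 3.35 TPM), Tnfrsf14 (46.4 against 17.7 TPM) and Slamf1 (35.0 against 14.9 TPM) fell (31.2%), while Cd40 (181 against 109 TPM, -0.72) and Cd86 (22.1 against 12.4 TPM, -0.79) did not pass.

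Plasma cell genes were reduced in part and the secretory machinery was not. Prdm1, which encodes Blimp-1, the factor that commits B cells to antibody secretion, went from 16.6 to 5.73 TPM (2.89-fold lower, 2.63 to 3.19). Jchain, which joins pentameric IgM, fell from 91.4 to 42.0 TPM (2.18-fold, 2.05 to 2.31). Of 18 measured plasma cell genes of 27 in the files 6 fell (33.3%), 0 rose, and the median was -0.53; the other 4 were Trp53inp1 (37.6 against 5.93 TPM), Ly6c2 (13.8 against 4.51 TPM), Lax1 (56.7 against 21.1 TPM) and Zbtb20 (12.6 against 5.24 TPM). Trp53inp1 and Lax1 were higher still in splenic B cells, at 111 and 265 TPM, and the others past the rule were not. With TMM scaling 5 of the 18 were called lower and with RLE scaling 3, and Jchain passed the rule with neither. With FPKM 3 of the 14 measured on that scale were lower. Xbp1, the factor of the secretory programme, was at 99.1 and 58.5 TPM (-0.75), and Irf4, needed for plasma cells and induced by receptor signals, at 191 and 208 TPM. Sdc1 (CD138), the surface marker of plasma cells, stayed below the minimum at 2.67 and 2.13 TPM. Prdm1 ranged from 0.38 TPM in aBCD180 to 38.3 TPM in LPS+IL21, and LPS+a-d-dextran lay next to LPS+IL4 (5.04 TPM).

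Of 34 measured genes of the secretory pathway and protein folding only Syvn1, a ubiquitin ligase of the endoplasmic reticulum, passed the rule (194 against 96.5 TPM), and it did so by the smallest margin. The chaperone genes Hspa5 (859 against 984 TPM, 0.20), Hsp90b1 (932 against 906 TPM, -0.04) and Calr (1092 against 1103 TPM, 0.01) differed little. The list's median difference was 0.00 for the 34 genes on the TPM scale, and 0.14 with TMM and 0.18 with RLE scaling for 36 genes, against medians of 0.09 and 0.13 over all genes under these.

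Genes of class switching and the germinal centre leaned slightly upward. Of 21 measured of 27 in the files 2 fell (9.52%, against 7.22% overall), Bcl6 and Hmces (22.2 against 7.42 TPM), 0 rose, and the median was 0.31. Ung, an enzyme that removes uracil from DNA, was at 78.6 and 139.8 TPM (0.82) and Batf at 284 and 417 TPM (0.55).

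Growth genes leaned upward as whole groups, with few genes past the rule. The Myc and ribosome biogenesis list had the highest median, 0.70, with 37 of 39 measured genes above 0. Myc, which drives cell growth, stood at 165 TPM with LPS and 306 TPM with LPS+a-d-dextran (0.89, 1.86-fold higher, 1.81 to 1.92). Srm, a polyamine synthesis enzyme and Myc target, was at 306 and 612 TPM and lay just under the rule. Nucleolar genes followed with like values, such as Ncl (673 against 1189 TPM, 0.82), Npm1 (2989 against 5241 TPM, 0.81), Nolc1 (205 against 375 TPM, 0.87) and Polr1b (46.8 against 85.0 TPM, 0.85). In 34 of the 39 genes LPS+a-d-dextran was the highest of the 6 activated cultures, against 26.8% of all genes tested. Mxd4, which encodes a partner of MAX that opposes Myc, was the only member past the rule, and it fell from 63.9 to 12.4 TPM (5.16-fold, 4.52 to 5.89). TMM scaling called 4 members of the list higher and RLE scaling 7, in place of 0. The E box that Myc and MAX bind, CACGTG, is the same on both strands; it stood in promoter windows of 8 of 32 matched list genes (25%), against 12.7% of tested genes matched and 7.15% of all windows.

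Cell cycle genes followed with smaller values. All 35 DNA replication genes were measured and lay above 0, between 0.27 and 0.82, with a median of 0.51, and none passed the rule. Orc1, which marks replication origins, was at 29.8 and 53.4 TPM, Mcm10 at 62.2 and 106 TPM, and Pcna, the sliding clamp, at 1035 and 1559.7 TPM. RLE scaling called 1 of them higher. Of 30 mitosis genes 27 lay above 0, with a median of 0.42 and 0 past the rule, and Mki67 was at 165 and 211 TPM. Among G1 regulators Ccne1 (61.1 against 112 TPM, 0.86), Ccnd2 (198 against 322 TPM, 0.70) and Cdk6 (33.0 against 49.3 TPM, 0.57) leaned upward. Cdkn2d, an inhibitor of CDK4 and CDK6, fell from 33.2 to 10.5 TPM and was the only one of 17 measured past the rule.

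Metabolic genes held some of the called increases. Hk2, the inducible first enzyme of glycolysis, rose from 38.8 to 85.3 TPM (2.20-fold, 2.12 to 2.29), and Pfkp, a phosphofructokinase, from 76.4 to 159 TPM (2.09-fold, 2.02 to 2.16). The lactate genes Ldha (1065 against 1932 TPM, 0.86) and Slc16a1 (48.4 against 94.1 TPM, 0.94) came near the rule, and 2 of 19 measured glycolysis genes rose in all (10.5%, against 0.438% of all genes tested). Asns, which makes asparagine, rose from 22.3 to 50.2 TPM (2.25-fold, 2.06 to 2.47). It was the only one of 17 measured amino acid genes past the rule, beside Psat1 (169.8 against 323 TPM, 0.92), Slc7a5 (90.7 against 171 TPM, 0.91) and Mthfd2 (125 against 228 TPM, 0.86), and TMM scaling called 5 of the 19 measured on that scale higher. Sterol and fatty acid genes differed little, with a median of 0.18 and 1 of 30 past the rule. That gene was Mylip, which targets the LDL receptor for destruction (19.0 against 7.60 TPM).

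The early response genes that receptor signals induce within hours did not move as a group. Of 36 listed 22 were measured; 1 rose (4.55%) and 3 fell (13.6%). Egr3, a zinc finger factor induced by calcium and ERK signals, rose from 36.7 to 98.9 TPM (2.70-fold, 2.57 to 2.83). It was higher still in aBCD180, at 190 TPM. Its relative Egr1 was at 67.4 and 41.5 TPM (-0.69), and Egr2 was below the minimum at 7.47 and 8.14 TPM. Nr4a1, a common reporter of receptor signals, was at 41.4 and 55.7 TPM (0.42), against 184 TPM in aBCD180. Dusp6, a phosphatase that ends ERK signals, fell from 21.9 to 4.54 TPM (4.83-fold, 4.20 to 5.57). The RNA-destabilising genes Zfp36 (129.8 against 33.9 TPM) and Zfp36l1 (269 against 115 TPM) fell. The median of the list, -0.23, was -0.01 with TMM and 0.03 with RLE scaling, so its sign depends on the scale.

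Among 25 measured NF-kB genes 2 rose (8%, against 0.438% of all genes tested) and 2 fell (8%, against 7.22%), so the share that fell lay near that of all genes. Nfkbid, an atypical inhibitor that acts in the nucleus, rose from 72.2 to 153 TPM (2.12-fold, 2.02 to 2.23). Bcl2l1, which encodes the survival factor Bcl-xL, rose from 40.7 to 87.1 TPM (2.14-fold, 2.02 to 2.27). Both Nfkbid and Bcl2l1 were higher still in aBCD180, at 305 and 99.7 TPM. Ltb and Map3k14 (NIK, 23.6 against 10.7 TPM), the kinase of the alternative NF-kB pathway, fell, while the subunits Nfkb1 (0.25), Rela (-0.47) and Rel (0.35) did not pass. In the cell death list of 18 measured genes, the death-promoting BCL2 relatives Bbc3 (PUMA, 22.6 against 7.34 TPM) and Bmf (30.4 against 12.0 TPM) and the p53 targets Sesn1 (61.7 against 16.3 TPM) and Trp53inp1 fell, and Bcl2l1 was the only member that rose, so that 22.2% fell and 5.56% rose. Bcl2 (68.2 against 48.4 TPM, -0.49) and Mcl1 (509 against 314 TPM, -0.70) leaned downward without passing. Of 7 measured inhibitory receptors and related genes that B cells share with T cells, Egr3 rose, and Btla, an inhibitory receptor that binds HVEM (136 against 64.0 TPM), and Cblb fell.

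The 20 largest increases came mostly from outside the lists. Gpr15, a homing receptor of the large intestine, rose from 11.6 to 40.0 TPM (3.46-fold, 2.99 to 4.02), while LPS+IL4 held 253 TPM. Lrrc32 (GARP), which tethers latent TGF-beta to the cell surface, rose from 26.1 to 82.9 TPM (3.18-fold, 3.01 to 3.37). Ahr, the aryl hydrocarbon receptor, rose from 6.41 to 19.1 TPM (2.98-fold). Gadd45b, a stress and NF-kB response gene, was the most abundant of the 20 and rose from 127 to 298 TPM (2.35-fold, 2.24 to 2.46). Lrrc32, Ahr and Gadd45b were higher here than in each of the other 5 activated cultures.

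The further genes of this set have varied roles. The nuclear factors Hic1 (6.69 against 21.6 TPM), Rxra (4.44 against 14.6 TPM) and Atxn1 (6.26 against 14.7 TPM), the guidance factor Sema3b (9.01 against 26.9 TPM), which was at 0.49 TPM or less in LPS+IL4, LPS+IL21 and splenic B cells, the lipase Mgll (3.40 against 10.3 TPM), the necroptosis effector Mlkl (7.99 against 19.1 TPM), and Timd2 (10.4 against 24.1 TPM) and Ankrd37 (7.02 against 16.6 TPM) rose. So did Bcat1, which breaks down branched-chain amino acids (16.1 against 43.4 TPM), Cldnd1 (108 against 242 TPM), Mcrip2 (15.7 against 36.0 TPM) and the tubulin Tubb6 (40.2 against 87.8 TPM). Of these, Rxra (39.6 TPM), Sema3b (38.1 TPM), Atxn1 (22.85 TPM), Timd2 (27.8 TPM) and Tubb6 (102 TPM) were higher still in aBCD180. The rest of these were lower there than in LPS+a-d-dextran. Hist1h2bj had the largest increase of all (3.31 against 15.6 TPM), on 19.3 and 121 expected counts, a 4.72-fold difference with an interval of 2.89 to 8.10. It is 1 of many near-identical histone genes, whose transcripts mostly lack poly(A) tails. The 67 Hist genes together summed to 1575 TPM with LPS and 2427 TPM with LPS+a-d-dextran.

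Set against each other primary B library, LPS+a-d-dextran was nearest to aBCD180 and LPS by the count of genes past the rule. It differed from aBCD180 in 382 genes (4.72%), 62 higher and 320 lower, and from LPS in 629. From LPS+IL21 it differed in 1441 genes (17.7%), from aCD40+IL4 in 2142 (25.4%), from LPS+IL4 in 2315 (27.6%) and from splenic B cells in 4125 (46.4%). These comparisons share the LPS+a-d-dextran library. Library depth, effective length (LPS+IL4 and splenic B cells) and Ddx3y (LPS+IL21 and splenic B cells) also differed between these references, and their part was not tested.

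**Figure D5:**
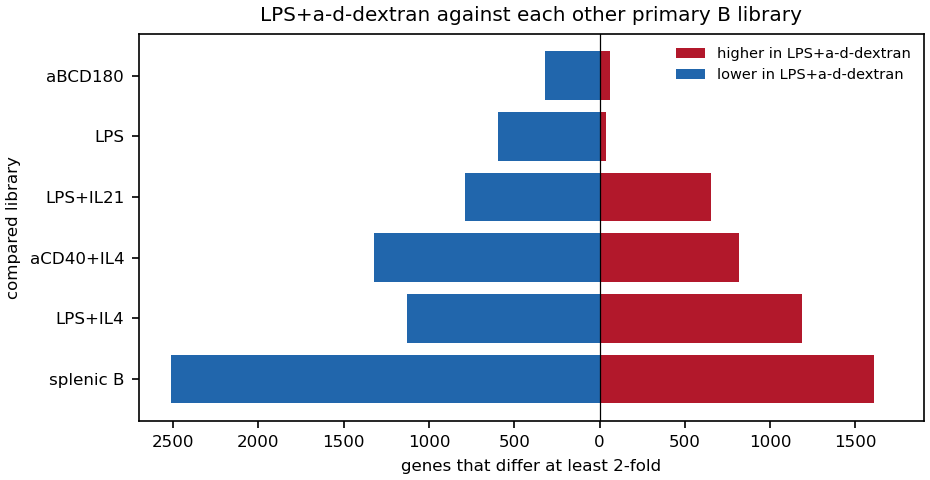
Genes past the rule of size between LPS+a-d-dextran and each other primary B library, with genes lower in LPS+a-d-dextran to the left of 0 and higher ones to the right. The bars for aBCD180 (62 higher, 320 lower) and LPS (36 higher, 593 lower) are shortest, and splenic B has 1611 higher and 2514 lower.

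Few genes placed LPS+a-d-dextran outside the range of all other activated cultures. Of 8964 genes at 10 TPM in at least 1 of the 6, it lay at least 1 below the lowest of the other 5 in 53 (0.591%) and at least 1 above the highest in 2 (0.0223%). Genes below needed at least 10 TPM in each of the other 5, and genes above at least 10 TPM in LPS+a-d-dextran. The 2 were Lrrc32 and Ccnb1ip1 (30.9 against 63.3 TPM). Ccnb1ip1 was at 0.03 TPM or less in LPS+IL4, LPS+IL21 and splenic B cells, so its place rests on the other 3 cultures. The 53 included the class II editor genes H2-Oa and H2-Ob, the traffic receptors S1pr1, S1pr4 and Gpr183, Ltb, Siglecg, Cd55, Dgka, Mxd4 and Trp53inp1. Btg2, an antiproliferative gene (115 against 26.2 TPM), Ccng2, a cyclin of quiescent cells (56.6 against 11.2 TPM), Tsc22d3 (GILZ, 21.6 against 5.15 TPM), Ypel3 (73.7 against 20.6 TPM) and the mitophagy kinase Pink1 (14.8 against 4.86 TPM) were among them, chosen for naming after their values were seen. Without LPS+IL4 among the cultures, 82 genes lay below and 6 above. All 53 were also lower than LPS by the rule, which had to be so, since LPS is 1 of the other 5. Of the 53, 45 were highest in splenic B cells, and the like share of all genes was not counted.

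The same rule applied to the other cultures gave 7 genes above and 0 below for LPS, 300 and 229 for LPS+IL4, 76 and 25 for LPS+IL21, 146 and 136 for aCD40+IL4, and 56 and 14 for aBCD180. Of the 6 cultures LPS+a-d-dextran was the only one in which genes below the others outnumbered those above. Among the 593 genes lower than LPS, LPS+a-d-dextran was the lowest of the 6 cultures in 392 (66.1%, against 19.9% of genes tested) and below the median of the 4 other cultures in 558 (94.1%, against 45.9%). Among the 36 higher genes it was the highest of the 6 in 18 (50%, against 26.8%). These shares use the same LPS+a-d-dextran values as the calls, so they describe the genes and are no independent support.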

How the data were processed

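Poly(A) RNA of each culture was sequenced for 50 cycles, per the labels' protocols. The authors deposited, for each library, 1 table of 24911 genes with expected counts (estimated reads per gene), TPM values and FPKM values, per the file headers. The submitters' processing notes name CASAVA 1.8.2, STAR, RSEM, bedtools and build mm10, with order and settings not stated. All 4237 rows that are not protein-coding held 0 and were left out.

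Differences in log2(TPM + 1) were computed with Python 3.11.15, pandas 2.3.3 and numpy 2.4.6, and exact intervals of the fold from the 2 expected counts, rounded to whole numbers, with scipy 1.17.1. With 1 library per condition edgeR 4.0.16 (R 4.3.3) served only to scale CPM values by TMM or RLE, with no test. Figures used matplotlib 3.10.9. The scripts were checked on simulated data.

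The text names genes of 31 lists and the 20 largest differences in each direction, leaving out unnamed gene models (2 higher and 12 lower) and antigen receptor segments. A few genes that these rules would name are counted and not reported here. The members and lists were chosen with earlier results of these data known. Alternatives were another pseudocount (0.1), scaling, FPKM, other TPM minimums (1, 30 or none), other sizes of difference and other reference cultures. The resting-high grouping and its alternatives were chosen after seeing the data.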

Additional observations from a re-analysis of the deposited data

How the results depend on the processing

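No paired analysis was possible because each group holds 1 library. The direction of the imbalance, more genes lower than higher, held under every alternative run, while the number of higher genes varied. Against 36 higher genes in the main comparison, TMM scaling gave 105, RLE scaling 130, a TPM minimum of 1 or no minimum 60, and a minimum of 30 gave 22 with 342 lower (364 in all). A difference of at least 2 gave 75 genes, 0 higher and 75 lower, and a difference of at least 1.5-fold gave 1940, 530 higher and 1410 lower. Against the median of the other 5 activated cultures 246 genes were higher, and against that of the other 3 LPS cultures 1029 were past the rule, 401 of them higher. A pseudocount of 0.1 gave 45 higher and 636 lower, and FPKM 26 and 406. With TMM scaling 34 of the 36 higher and 446 of the 593 lower genes remained called. Of 140 named genes past the rule, 115 stayed past it in the same direction with TMM scaling, 111 with RLE scaling and 113 with FPKM, and 0 reversed. Among the lists, the median of the inhibitory receptor genes went from -0.20 to 0.00 with RLE scaling, and its genes called lower from 2 of 7 to 0 of 9 with TMM scaling. Genes outside the range of the other cultures numbered 55 in all, 88 without LPS+IL4 (6 above, 82 below) and 232 among LPS cultures only (14 above, 218 below), and TMM scaling gave 6 above. The cause of these shifts was not tested. With 1 library per condition, depth sets only the counting error, and the spread between cultures is unknown.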

Other observations

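A few genes were present in some of the primary B libraries and nearly absent from others, a division that does not follow the agents added. It follows the last letter of the library code in the titles, A for LPS+IL4, LPS+IL21 and splenic B cells and C for the other 4, whose meaning the labels do not give. LPS+IL4, LPS+IL21 and splenic B cells also serve as references for the resting-high genes, and the 2 LPS cultures among them for the range of the other cultures. The part of this division in those counts was not tested. Atp6v0e2, a proton pump subunit, stood at 8.02 TPM with LPS, 11.8 with LPS+a-d-dextran, 6.87 with aCD40+IL4 and 13.4 with aBCD180, but at 0.11, 0.06 and 0.01 TPM in LPS+IL4, LPS+IL21 and splenic B cells. Ccnb1ip1 and Sema3b shared this pattern, with 63.3 and 26.9 TPM in LPS+a-d-dextran. The reverse held for 4 genes, above 5 TPM in LPS+IL4, LPS+IL21 and splenic B cells and below 0.5 TPM in the other 4: Isoc2b, Oasl2, Trim12a and Trim30d. Trim12a was at 53.1, 71.2 and 265 TPM in the first set and at 0, 0, 0 and 0.06 TPM in aBCD180, aCD40+IL4, LPS and LPS+a-d-dextran. Oasl2, an interferon response gene, was at 0.21 and 0.07 TPM in the 2 libraries compared and at 8.92 TPM in LPS+IL21. LPS and LPS+a-d-dextran fall on the same side of this division for all 7 genes.

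Gene length moved slightly with the difference. The median length was 2102 bases for the 36 higher genes, 2786 for the 593 lower genes and 2743 for all genes tested. Hemoglobin transcripts varied widely among the cultures: erythroid and platelet markers summed to 2569 TPM with LPS, 943 with LPS+a-d-dextran, 10339 with LPS+IL21, 4794 with aCD40+IL4, 1713 with aBCD180, 5.76 with LPS+IL4 and 1109 in splenic B cells. Their part in the results was not tested.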
